A study of Homo sapiens with 4 samples.

Results

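SREBP-driven cholesterol and fatty acid synthesis was followed through 28 genes of the 25343 in each table, chosen by symbol from a written list. A sterol arm of 16 genes holds enzymes of cholesterol synthesis with SREBF2, the feedback gene INSIG1 and the sterol carrier STARD4, and a fatty acid arm of 12 genes holds enzymes of fatty acid synthesis with SREBF1. All 28 symbols were found in both tables. A member was counted as measured in a line where the mean of its shMAOA and shCon values was at least 1, which left 27 members in C4-2B ENZR and 28 in LNCaP. STARD4 was the member left out in C4-2B ENZR, with a mean of 0.810, and the lowest member kept there was MVD, at 18.1 in shMAOA and 16.4 in shCon.

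RNA sequencing covered 4 libraries, 1 per group, from human prostate carcinoma lines. The groups were C4-2B ENZR cells with an shRNA against MAOA (shMAOA), C4-2B ENZR cells with a non-targeting shRNA (shCon), LNCaP cells with the MAOA shRNA and LNCaP cells with the non-targeting shRNA. C4-2B is a derivative of LNCaP, and the ENZR cells, resistant to the antiandrogen enzalutamide, were held in 20 µM of that drug in shMAOA and shCon alike, while LNCaP medium had none, so that line and drug cannot be told apart. Both lines were in RPMI medium with 10% serum, an outside source of sterol and lipid, and both hairpins came by lentivirus with antibiotic selection. The labels do not say whether the lines received the same MAOA hairpin or whether selected cells were pooled. The library names carry a suffix that libraries of a line share and that differs between the lines, so line and suffix cannot be told apart either.

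SREBP transcription factors are made as membrane proteins of the endoplasmic reticulum. SCAP carries them to the Golgi when membrane sterol is low, proteases cut them there, and the freed part enters the nucleus and switches on lipid synthesis genes. INSIG proteins hold SCAP back when sterol is plentiful. SREBF2 encodes the form that mainly serves cholesterol synthesis and SREBF1 the forms that mainly serve fatty acid synthesis. In prostate carcinoma the androgen receptor is known to raise this programme, and fatty acid synthase is abundant in these cells.

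Promoter sequences are shown for 5 members that stood out in the comparisons below or that encode a regulator: INSIG1, SREBF2, NSDHL, SCD and FADS1. Each is the 300 bases from 250 before to 50 after a RefSeq start in GRCh38.p14, written 5′ to 3′ on the strand of the gene. The expression tables were made on hg19, and no coordinates were carried between the builds. The windows are chr7:155297628-155297927 for INSIG1 (plus strand), chr22:41832855-41833154 for SREBF2 (plus strand), chrX:152830813-152831112 for NSDHL (plus strand), chr10:100346983-100347282 for SCD (plus strand) and chr11:61816954-61817253 for FADS1 (minus strand). Capitals mark matches, on either strand, to 4 motifs: TCACNCCAC and TCACGTGA, both bound by SREBP, CCAAT, the NF-Y box, and GGGCGG, the SP1 box. Neighbouring matches can share bases, and TCACGTGA reads the same on both strands.
INSIG1: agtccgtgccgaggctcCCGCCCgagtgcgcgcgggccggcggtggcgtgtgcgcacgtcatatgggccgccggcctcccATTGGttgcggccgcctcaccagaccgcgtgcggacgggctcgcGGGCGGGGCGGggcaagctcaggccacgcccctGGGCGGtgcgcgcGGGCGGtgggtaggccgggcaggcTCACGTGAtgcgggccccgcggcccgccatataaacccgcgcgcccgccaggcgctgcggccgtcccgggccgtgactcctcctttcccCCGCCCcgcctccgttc
SREBF2: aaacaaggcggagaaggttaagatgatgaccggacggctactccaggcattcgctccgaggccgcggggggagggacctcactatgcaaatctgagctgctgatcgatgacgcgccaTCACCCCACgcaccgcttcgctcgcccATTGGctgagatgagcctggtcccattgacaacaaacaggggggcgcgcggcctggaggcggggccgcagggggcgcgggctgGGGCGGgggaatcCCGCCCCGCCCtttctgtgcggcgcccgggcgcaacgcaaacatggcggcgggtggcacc
NSDHL: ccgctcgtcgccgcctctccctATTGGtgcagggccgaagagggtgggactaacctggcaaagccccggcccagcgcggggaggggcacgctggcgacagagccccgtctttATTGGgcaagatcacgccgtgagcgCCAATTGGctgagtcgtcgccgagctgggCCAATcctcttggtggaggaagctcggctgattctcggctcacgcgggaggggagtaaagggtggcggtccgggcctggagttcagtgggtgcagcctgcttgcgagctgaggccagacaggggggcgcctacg
SCD: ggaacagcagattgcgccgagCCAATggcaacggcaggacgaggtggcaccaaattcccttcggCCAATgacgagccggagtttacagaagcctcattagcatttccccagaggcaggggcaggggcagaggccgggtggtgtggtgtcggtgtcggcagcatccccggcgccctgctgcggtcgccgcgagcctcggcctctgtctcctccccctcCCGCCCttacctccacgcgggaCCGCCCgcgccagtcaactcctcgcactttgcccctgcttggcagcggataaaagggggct
FADS1: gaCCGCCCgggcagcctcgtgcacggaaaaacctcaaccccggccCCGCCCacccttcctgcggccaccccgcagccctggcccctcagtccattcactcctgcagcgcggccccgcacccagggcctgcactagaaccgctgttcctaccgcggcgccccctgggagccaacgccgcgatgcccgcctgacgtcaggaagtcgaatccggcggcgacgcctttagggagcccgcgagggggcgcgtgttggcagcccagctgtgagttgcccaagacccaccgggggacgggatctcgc
INSIG1 had TCACGTGA beginning 56 bases before its start, and SREBF2 had TCACCCCAC beginning 133 bases before its start. NSDHL held 5 CCAAT matches, of which a neighbouring pair shared bases, and no match to the other motifs. SCD held 2 CCAAT and 2 GGGCGG matches, and FADS1 held 2 GGGCGG matches.

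Of the 28 members, 25 were matched by symbol in the RefSeq promoter table; SQLE, FDFT1 and FASN were not in it. A gene was counted when any of its listed starts held the motif. TCACNCCAC was found in 2 of 25 members, SREBF2 and ACSL1, and in 1.39% of all 27305 genes of the table (1.13% of 35116 promoters). TCACGTGA was found in INSIG1 alone among the 25, and in 1.18% of all genes (0.98% of promoters). CCAAT was found in 20 of 25 members, 13 of 14 sterol and 7 of 11 fatty acid members, against 39.7% of all genes (34.6% of promoters). GGGCGG was found in 23 of 25 members, 13 of 14 sterol and 10 of 11 fatty acid members, against 48.3% of all genes (45.0% of promoters). Counted by promoter, the members had 39, of which 24 held CCAAT, 31 GGGCGG, 2 TCACNCCAC and 1 TCACGTGA. These matches describe letters in a window of this length; no binding was measured.

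Values are read counts scaled to library size with the TMM method, written CPM here. Ratios are log2 of (shMAOA CPM + 1)/(shCon CPM + 1) within the table of a line. The tables were normalized separately, so levels are not compared across lines. Reads per library were 23679869 in shMAOA and 23479051 in shCon of C4-2B ENZR, and 52012696 in shMAOA and 52550452 in shCon of LNCaP. MAOA, the targeted gene, was at 219 CPM in shMAOA and 327 CPM in shCon of C4-2B ENZR (66.8% of shCon), and at 139.5 CPM in shMAOA and 445 CPM in shCon of LNCaP (31.3% of shCon). It fell by 1.12 on the log2 scale over both lines (limma adjusted p = 2.92e-11), but not in DESeq2 (adjusted p = 0.315; range over the alternatives in the closing section). Over genes averaging at least 10 CPM the median ratio of C4-2B ENZR was -0.01, and that of LNCaP was 0.13. In LNCaP, TMM recomputed on the reads differed from the deposited scaling by -0.12 on the log2 scale, so LNCaP ratios are read against 0.13 rather than 0. All 8 luminal prostate markers were measured in both lines, although KLK3, a kallikrein of luminal cells, had just 6.34 CPM in shMAOA and 3.72 CPM in shCon of C4-2B ENZR. Basal markers summed to 0.122 CPM in shMAOA and 0.0404 CPM in shCon of C4-2B ENZR and to 1.15 CPM in both LNCaP libraries, and of 3 leukocyte markers CD3E was at 0 throughout and PTPRC at 0.202 CPM or less in every library. CD68, the third, was at 11.1 CPM in shMAOA and 9.87 CPM in shCon of C4-2B ENZR and at 24.8 CPM in shMAOA and 17.1 CPM in shCon of LNCaP (ratio 0.51, interval 0.41 to 0.66). The 4 neuroendocrine markers summed to 73.7 CPM in shMAOA and 88.5 CPM in shCon of C4-2B ENZR and to 55.4 CPM in shMAOA and 36.6 CPM in shCon of LNCaP, nearly all of it ENO2. Of 4 stromal markers COL1A2 was at 0 throughout, while COL1A1 was at 52.9 CPM in shMAOA and 44.4 CPM in shCon of C4-2B ENZR and at 60.9 CPM in shMAOA and 54.2 CPM in shCon of LNCaP. Markers of fat and liver, 3 genes, summed to 5.08 CPM in shMAOA and 3.56 CPM in shCon of C4-2B ENZR, and to 2.46 CPM in shMAOA and 1.71 CPM in shCon of LNCaP. The part of these markers in the results was not tested.

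The fatty acid arm was the more abundant of the 2 arms in every library. Fatty acid members summed to 4761 CPM in shMAOA and 4160 CPM in shCon of C4-2B ENZR, and to 7441 CPM in shMAOA and 6461 CPM in shCon of LNCaP. Sterol members summed to 1451 CPM in shMAOA and 1366 CPM in shCon of C4-2B ENZR, and to 1529 CPM in shMAOA and 1356 CPM in shCon of LNCaP. These sums have no replicate error, and in bulk RNA fewer expressing cells and less RNA per cell cannot be told apart.

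**Figure D1:**
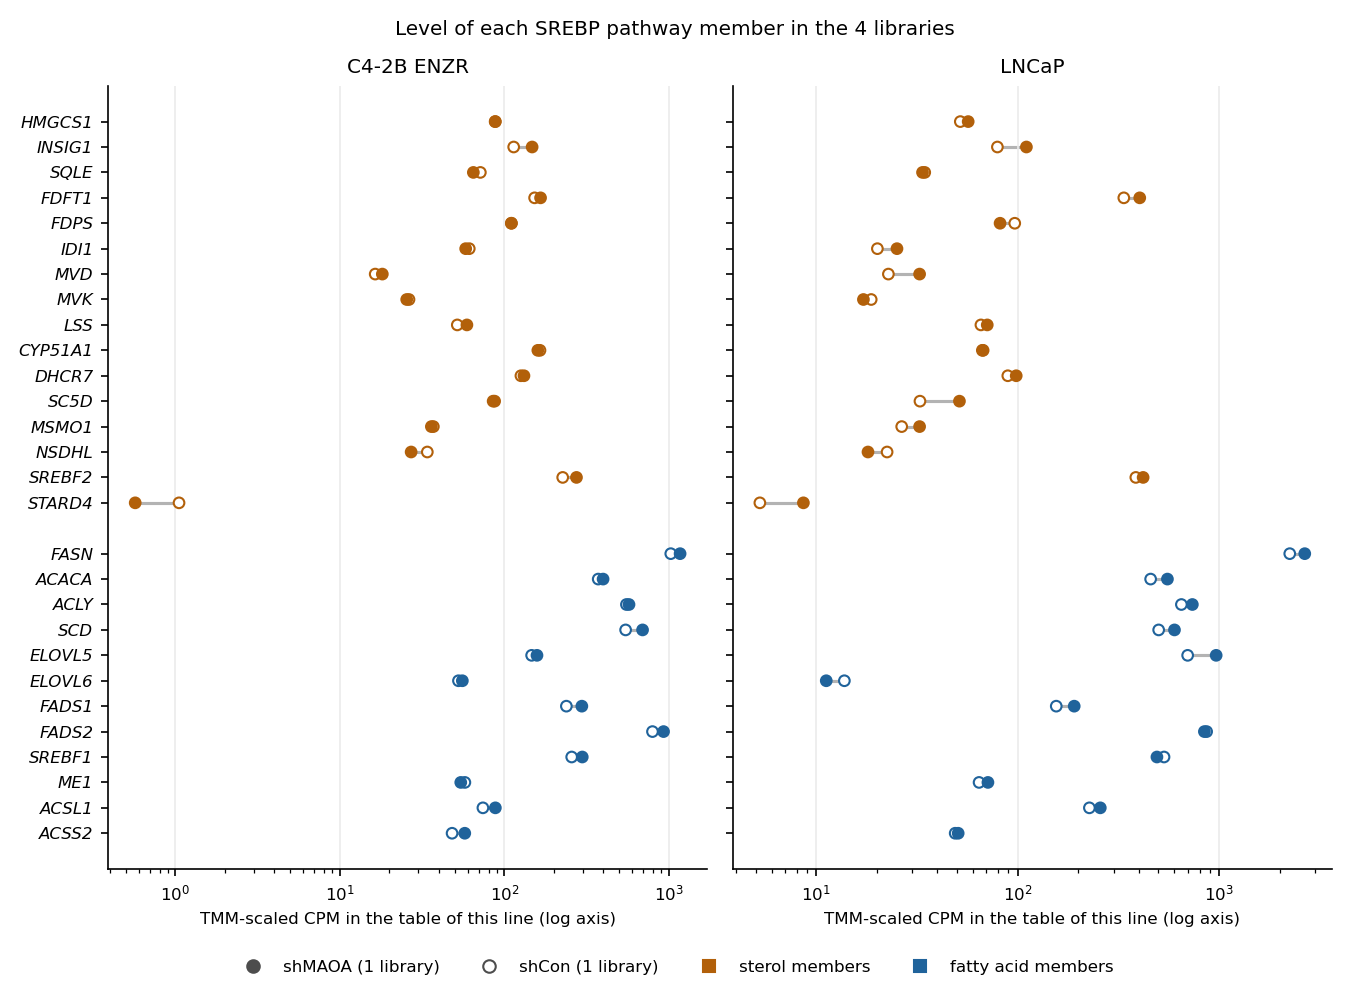
TMM-scaled CPM (log axis, on the horizontal) of each of the 28 members in C4-2B ENZR on the left and LNCaP on the right, with filled points for shMAOA and open points for shCon, 1 library each, orange for sterol and blue for fatty acid members. FASN is the highest member per library, at 1169 CPM in shMAOA and 1026 CPM in shCon of C4-2B ENZR, and STARD4 the lowest; no pair of points is 2-fold apart.

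Levels per kilobase of exon (GENCODE v29 lengths, which may differ from the annotation the reads were counted on) put fatty acid members in the top 4 places of each line. In C4-2B ENZR the highest were FADS2, at 186 CPM per kb in shMAOA and 159 in shCon, FASN, at 136 in shMAOA and 119.8 in shCon, ACLY, at 131 in shMAOA and 126 in shCon, and SCD, at 129 in shMAOA and 102 in shCon. In LNCaP FASN led with 311 CPM per kb in shMAOA and 262 in shCon, followed by ELOVL5 with 278 in shMAOA and 200.4 in shCon. The highest sterol member per kb was FDPS in C4-2B ENZR, at 67.0 in shMAOA and 66.8 in shCon, and FDFT1 in LNCaP, at 87.9 in shMAOA and 73.3 in shCon. With 1 library per group the order of neighbours among these levels has no replicate check.

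In the sterol arm, INSIG1 was the 1 member that rose in the test over both lines, and 9 of 15 counting intervals spanned 0 in C4-2B ENZR. INSIG1 encodes a protein that retains SCAP and is itself an SREBP target. INSIG1 was at 147 CPM in shMAOA and 114 CPM in shCon of C4-2B ENZR, and at 111 CPM in shMAOA and 79.3 CPM in shCon of LNCaP. It was thus higher with the MAOA hairpin in each line. Its ratio was 0.37 in C4-2B ENZR (95% counting interval 0.30 to 0.44) and 0.47 in LNCaP (0.42 to 0.54). The interval is an exact conditional one on the read ratio without the pseudocount, and it covers counting error only. Over both lines the mean ratio was 0.42 ± 0.12 (SE; limma adjusted p = 0.0206), higher in 2 of 2 lines. DESeq2 (adjusted p = 0.110) and edgeR after recomputing TMM (adjusted p = 0.0659) did not call it, within a range of 0.0133 to 0.110 over the alternatives that keep the line as the pairing and the filter on low values. The promoter of INSIG1, printed above, is the 1 of 25 with a TCACGTGA match, found in 1.18% of all genes. A link between that match and the ratio was not tested.

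In that test each line gives 1 ratio, so it has 1 residual degree of freedom. Its error comes almost wholly from a spread pooled over 13114 genes (218 prior degrees of freedom). Its p-values measure the size of a mean ratio against that spread. The libraries are not stated to be separate cultures. "Rose" and "fell" refer to it, at a Benjamini-Hochberg adjusted p under 0.05 over all genes. Over all genes it called 4.19% as risen and 1.49% as fallen. Of 15 sterol members tested, 1 rose and none fell. At an unadjusted p under 0.05, 3 were higher and 1 lower, where 1810 of all 13114 genes were higher and 705 lower. By edgeR with recomputed TMM and by DESeq2, none of the 15 sterol members was called. Their median mean ratio was 0.12, against 0.06 over all genes tested, and it was 0.00 from C4-2B ENZR alone (without LNCaP).

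Within the lines, 4 of 15 sterol members had a counting interval above 0 and 2 below 0 in C4-2B ENZR, where 24.6% of genes with a mean of at least 10 lay above and 26.7% below. In LNCaP 10 of 15 members with such a mean lay above 0 and 2 below, where 57.6% of genes lay above and 20.0% below. The arm's median ratio was 0.00 in C4-2B ENZR, as for all genes, and 0.13 in LNCaP, against 0.11 for all genes with a mean of at least 1. The LNCaP value turned to -0.00212 when ratios were centred on the median of 0.13, and to -0.07 with equal library sums. No sterol member reached a 1.5-fold difference in C4-2B ENZR, where 1.59% of genes were that much higher and 0.963% that much lower in shMAOA. In LNCaP 2 did, both higher, against 4.98% of genes higher and 1.57% lower. At a limit of 25% higher, 2 of all 27 measured members passed in C4-2B ENZR, against 7.78% of genes, and 5 of 28 passed in LNCaP, against 21.3% of genes.

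**Figure D2:**
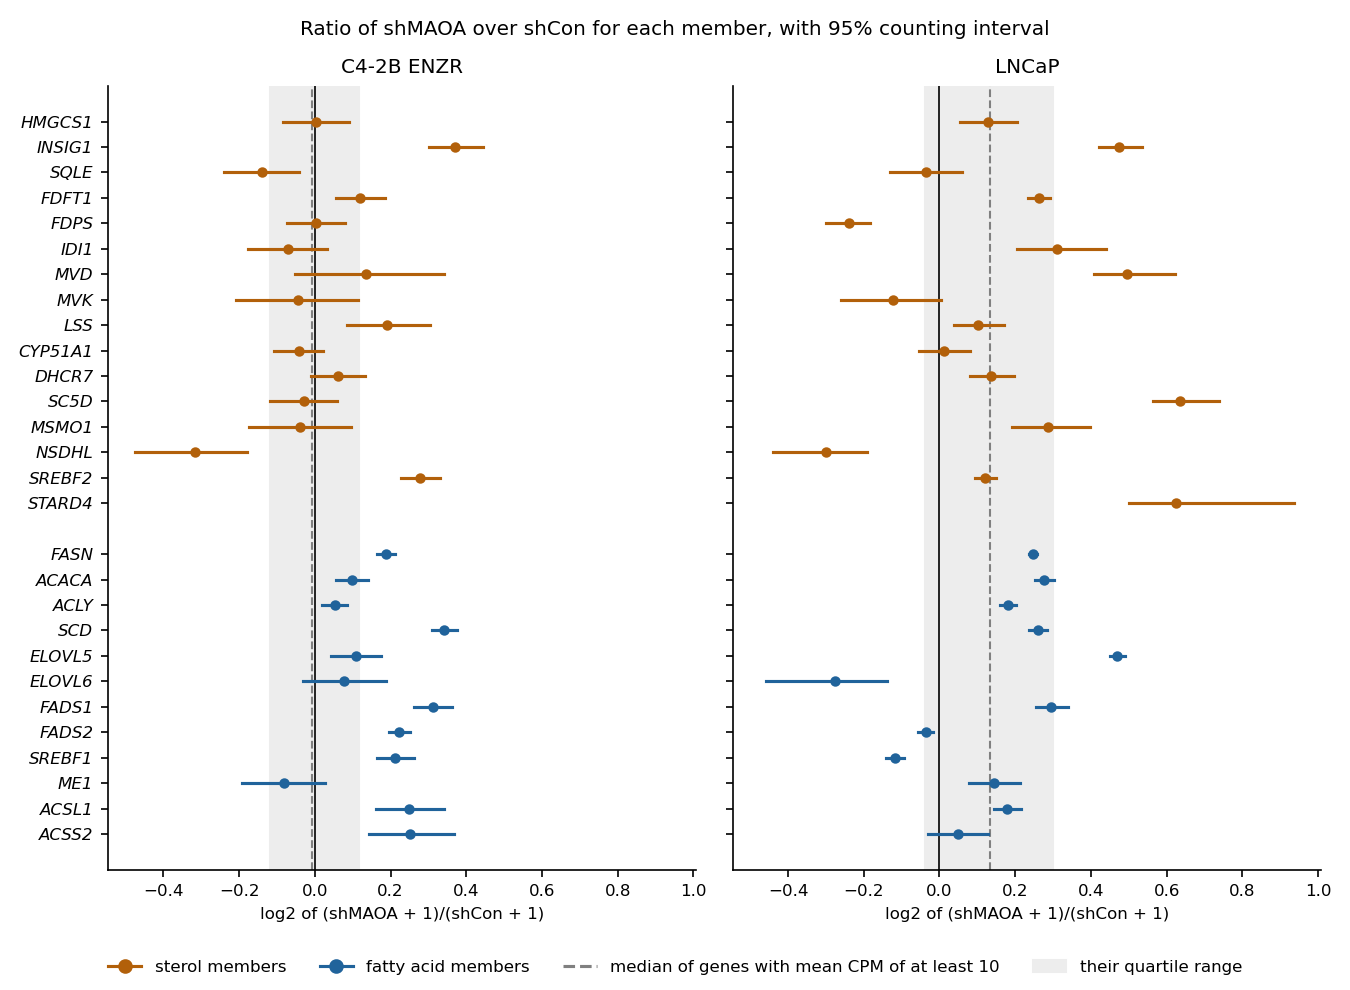
Log2 ratio of shMAOA over shCon (horizontal axis, pseudocount 1) for each measured member in C4-2B ENZR on the left and LNCaP on the right, with bars for the 95% counting interval, orange for sterol and blue for fatty acid members. The dashed line is the median of genes averaging at least 10 CPM (-0.01 in C4-2B ENZR and 0.13 in LNCaP) and the grey band their quartile range (-0.12 to 0.12 in C4-2B ENZR, -0.04 to 0.30 in LNCaP). INSIG1 lies right of the band and NSDHL left of it in each line.

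These 2 were SC5D and STARD4. SC5D, the lathosterol oxidase late in cholesterol synthesis, was at 85.4 CPM in shMAOA and 87.1 CPM in shCon of C4-2B ENZR, and at 51.4 CPM in shMAOA and 32.7 CPM in shCon of LNCaP. Its libraries were alike in C4-2B ENZR (ratio -0.03, interval -0.12 to 0.06) and apart in LNCaP (0.64, interval 0.56 to 0.74). Over both lines SC5D did not pass (0.30 ± 0.13, SE; limma adjusted p = 0.150), and no test of the difference between lines was possible. STARD4, a sterol carrier protein, had 14 reads in shMAOA and 26 reads in shCon of C4-2B ENZR, or 0.569 CPM in shMAOA and 1.05 CPM in shCon. In LNCaP it had 8.64 CPM in shMAOA against 5.25 CPM in shCon (ratio 0.62, interval 0.50 to 0.94). The intervals of STARD4 spanned 0 in C4-2B ENZR, at -1.94 to 0.11, and lay above 0 in LNCaP. Neither gene reached 1.5-fold in LNCaP when ratios were centred, libraries were set to equal sums or TMM was recomputed.

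MVD, which decarboxylates mevalonate diphosphate, showed a similar pattern at a lower level. It was at 18.1 CPM in shMAOA and 16.4 CPM in shCon of C4-2B ENZR, and at 32.6 CPM in shMAOA and 22.8 CPM in shCon of LNCaP. The ratio was 0.14 in C4-2B ENZR, with an interval that spanned 0 (-0.05 to 0.34), and 0.50 in LNCaP (0.41 to 0.62), and it did not pass over both lines (0.32 ± 0.14, SE; limma adjusted p = 0.186).

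NSDHL, a dehydrogenase of the sterol C4 demethylation steps, was the member with the lowest mean ratio and the 1 member whose counting intervals lay below 0 in both lines. It was at 27.1 CPM in shMAOA and 34.0 CPM in shCon of C4-2B ENZR, and at 18.1 CPM in shMAOA and 22.5 CPM in shCon of LNCaP. The ratio was -0.32 (interval -0.48 to -0.18) in C4-2B ENZR and -0.30 (-0.44 to -0.19) in LNCaP, lower in 2 of 2 lines. It did not pass over both lines (-0.31 ± 0.14, SE; limma adjusted p = 0.188), with a range of 0.0419 to 0.294 over the alternatives that keep the pairing and the filter. The lowest of these came with libraries rescaled to equal sums and would be called.

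FDPS and SQLE had the next lowest mean ratios, and neither had a counting interval below 0 in more than 1 line. FDPS, the farnesyl diphosphate synthase, was at 110.3 CPM in shMAOA and 110.1 CPM in shCon of C4-2B ENZR, and at 81.8 CPM in shMAOA and 96.7 CPM in shCon of LNCaP (ratio -0.24, interval -0.30 to -0.18). SQLE, the squalene epoxidase, was at 64.7 CPM in shMAOA and 71.4 CPM in shCon of C4-2B ENZR (-0.14, interval -0.24 to -0.04), and at 33.7 CPM in shMAOA and 34.6 CPM in shCon of LNCaP (-0.04). Limma adjusted p-values were 0.670 for FDPS and 0.781 for SQLE. Exons of FDPS overlap the antisense gene RUSC1-AS1 over 18.6% of their length, those of HMGCS1 overlap AC114947.2 over 14.95%, and those of IDI1 overlap IDI2-AS1 over 14.8%. The sources used here do not state whether counting used strand, so reads of such pairs cannot be told apart.

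SREBF2, the transcription factor of the arm, was at 274 CPM in shMAOA and 226 CPM in shCon of C4-2B ENZR, and at 419.8 CPM in shMAOA and 386 CPM in shCon of LNCaP. Its ratio was 0.28 in C4-2B ENZR (interval 0.23 to 0.33), outside the quartile range of all genes, and 0.12 in LNCaP (0.09 to 0.15), where it turned to -0.01 after centring and to -0.08 with equal library sums. Over both lines SREBF2 did not pass (0.20 ± 0.14, SE; limma adjusted p = 0.461).

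The other 8 sterol members had ratios between -0.07 (IDI1, the isopentenyl diphosphate isomerase) and 0.19 (LSS, the lanosterol synthase) in C4-2B ENZR, and between -0.12 (MVK, the mevalonate kinase) and 0.31 (IDI1) in LNCaP. HMGCS1, which makes HMG-CoA, was at 88.0 CPM in shMAOA and 87.8 CPM in shCon of C4-2B ENZR, and at 56.8 CPM in shMAOA and 51.9 CPM in shCon of LNCaP. FDFT1, the squalene synthase, had intervals above 0 in both lines, as did INSIG1, SREBF2 and LSS, at ratios of 0.12 in C4-2B ENZR and 0.26 in LNCaP. In LNCaP the LSS ratio of 0.10 turned to -0.03 after centring, to -0.10 with equal library sums and to -0.01 with recomputed TMM. MSMO1, the methylsterol oxidase, had ratios of -0.04 in C4-2B ENZR and 0.29 in LNCaP. DHCR7, which reduces a double bond of dehydrocholesterol, had 0.06 in C4-2B ENZR and 0.14 in LNCaP. Both had intervals above 0 in LNCaP that spanned 0 in C4-2B ENZR. That difference was not tested, and the DHCR7 ratio in LNCaP turned to -0.06 with equal library sums. CYP51A1, the lanosterol demethylase, had ratios of -0.04 in C4-2B ENZR and 0.01 in LNCaP, and its value is uncertain, since 81.1% of the 50-base stretches of its GENCODE v29 transcripts also occur in transcripts of other genes there.

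Set in the order of the pathway, with other enzymes of the route from a list written beside the members, sterol synthesis showed ratios on both sides of 0 before and after squalene. Of the 8 enzymes before squalene, up to FDFT1, 1 had an interval above 0 and 2 below in C4-2B ENZR (median ratio -0.02), and 4 above and 2 below in LNCaP (0.06). Of 11 enzymes after squalene, from SQLE on, 3 lay above 0 and 3 below in C4-2B ENZR (median -0.04). In LNCaP 5 lay above and 3 below (median 0.01). Both LNCaP medians were below the 0.13 of LNCaP genes averaging at least 10 CPM. Of genes with such a mean, 24.6% lay above 0 and 26.7% below in C4-2B ENZR, and 57.6% above and 20.0% below in LNCaP. NSDHL, HSD17B7 and EBP, which follow each other in the route, all had ratios below 0 in both lines, though the intervals of HSD17B7 spanned 0.

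**Figure D3:**
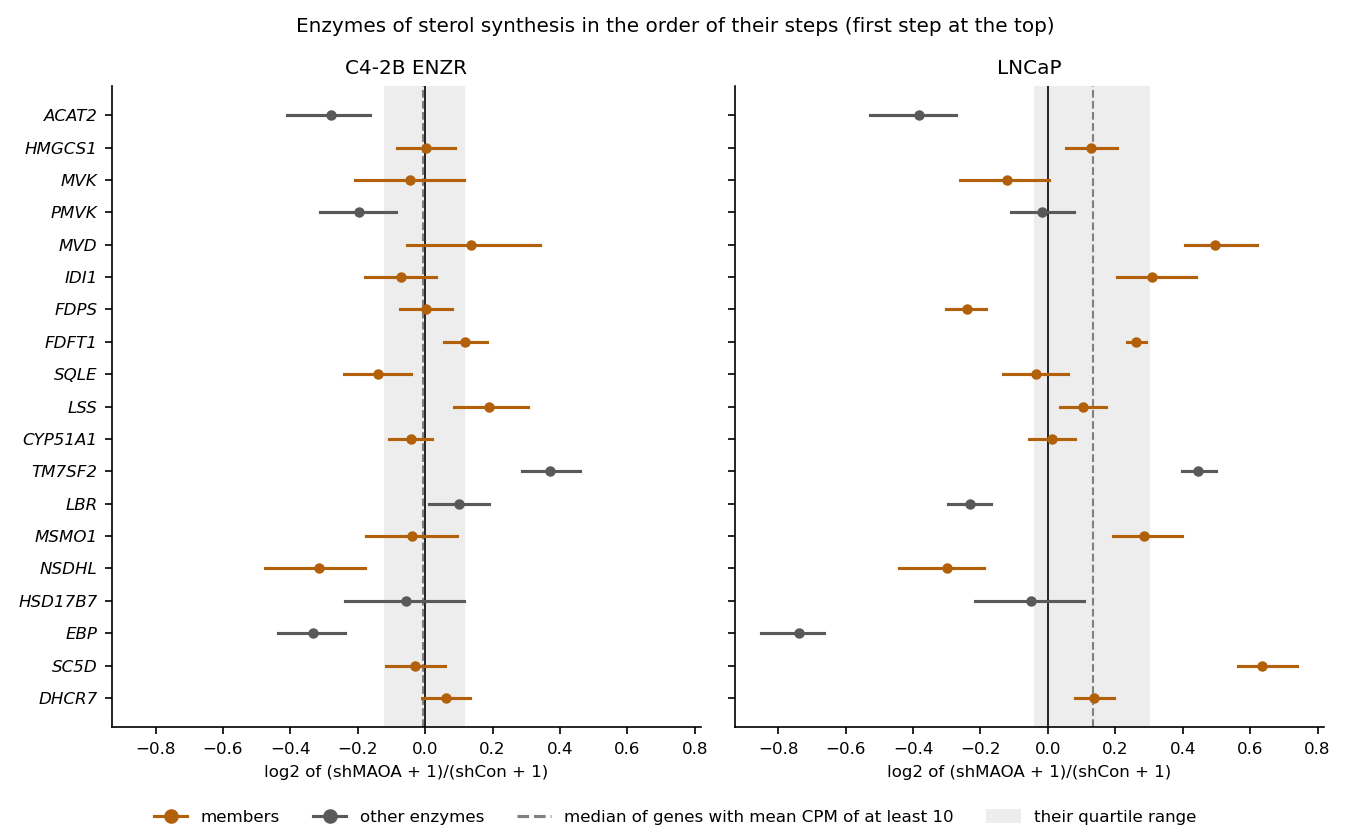
Log2 ratio of shMAOA over shCon (horizontal axis) with its 95% counting interval for 19 enzymes of sterol synthesis in the order of their steps from top to bottom, in C4-2B ENZR on the left and LNCaP on the right, members in orange and other enzymes in grey; the dashed line and grey band are the median and quartile range of genes averaging at least 10 CPM. NSDHL and EBP lie left of 0 and TM7SF2 right of 0 in each line, while SC5D lies at 0.64 in LNCaP and at -0.03 in C4-2B ENZR.

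Calls among these other enzymes concerned steps after squalene. Of 13 other genes of sterol synthesis and transport tested, EBP fell and TM7SF2 rose, where 4.19% of all genes rose and 1.49% fell. EBP, the sterol isomerase that acts after C4 demethylation, was at 59.1 CPM in shMAOA and 74.6 CPM in shCon of C4-2B ENZR, and at 29.2 CPM in shMAOA and 49.3 CPM in shCon of LNCaP. It fell by 0.53 ± 0.13 on the log2 scale over both lines (SE; limma adjusted p = 0.0022), was lower in 2 of 2 lines, and ranged from 0.000155 to 0.0329 in adjusted p over the alternatives that keep the pairing and the filter. TM7SF2, a sterol reductase that shares its step with LBR, was at 105 CPM in shMAOA and 80.8 CPM in shCon of C4-2B ENZR, and at 137 CPM in shMAOA and 100.1 CPM in shCon of LNCaP. It rose by 0.41 ± 0.12 (SE; limma adjusted p = 0.0267), higher in 2 of 2 lines, with a range of 0.0192 to 0.136 over those alternatives. LBR itself did not pass, with ratios of 0.10 in C4-2B ENZR and -0.23 in LNCaP. ACAT2, the cytosolic thiolase that opens the route, did not pass on the deposited scaling (limma adjusted p = 0.137, range 0.0269 to 0.225), though it would be called after centring or with equal library sums. It was at 39.4 CPM in shMAOA and 48.1 CPM in shCon of C4-2B ENZR and 17.0 CPM in shMAOA and 22.4 CPM in shCon of LNCaP.

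Of the 6 genes that carry, hold or cut SREBP, none passed the test. At an unadjusted p under 0.05, 2 of the 6 were higher and none lower, where 1810 of all 13114 genes were higher and 705 lower. edgeR on the deposited scaling called SPRING1, and edgeR with recomputed TMM and DESeq2 called none. SPRING1, a factor that SREBP cleavage needs (listed under its older symbol), had the highest mean ratio, 0.39 ± 0.13 (SE; limma adjusted p = 0.0615), at 35.1 CPM in shMAOA and 29.7 CPM in shCon of C4-2B ENZR and 40.0 CPM in shMAOA and 27.1 CPM in shCon of LNCaP. MBTPS1, the protease of the first cut, had the lowest, -0.05. SCAP had ratios of 0.16 in C4-2B ENZR and 0.21 in LNCaP. INSIG2, the relative of INSIG1, was at 27.0 CPM in shMAOA and 26.4 CPM in shCon of C4-2B ENZR and at 20.0 CPM in shMAOA and 12.4 CPM in shCon of LNCaP. It did not pass (limma adjusted p = 0.152).

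In the fatty acid arm, 11 of 12 members had a positive ratio in C4-2B ENZR, all of them under 1.5-fold, and no member rose or fell over both lines. The median ratio there was 0.20, against 0.00 for all genes, and 10 of 12 counting intervals lay above 0 and none below, where 24.6% of all genes with a mean of at least 10 lay above. Intervals narrow with the number of reads, and no fatty acid member was under 48.0 CPM in a C4-2B ENZR library. In LNCaP the median was 0.18, against 0.11 for all genes. It was 0.05 after centring and -0.02 with equal library sums. There 8 of 12 intervals lay above 0 and 3 below, where 57.6% of genes lay above and 20.0% below. Limma called none of 12 members (background 4.19% risen and 1.49% fallen). At an unadjusted p under 0.05, 2 were higher and none lower, where 1810 of all 13114 genes were higher and 705 lower. By edgeR and DESeq2, none of the 12 fatty acid members was called. Their median mean ratio was 0.17, against 0.06 for all genes.

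FASN, the multi-domain synthase that makes palmitate, was at 1169 CPM in shMAOA and 1026 CPM in shCon of C4-2B ENZR, and at 2663 CPM in shMAOA and 2244 CPM in shCon of LNCaP. It was higher in shMAOA of each line, with a ratio of 0.19 in C4-2B ENZR (interval 0.16 to 0.21) and 0.25 in LNCaP (0.24 to 0.26). On the deposited scaling that difference was larger than counting error, and the LNCaP ratio was 0.11 after centring. FASN did not pass over both lines (0.22 ± 0.20, SE; limma adjusted p = 0.614). The enzymes that make acetyl-CoA and malonyl-CoA for FASN had intervals above 0 as well, ACSS2 in LNCaP excepted. ACLY, which makes cytosolic acetyl-CoA from citrate, had ratios of 0.05 in C4-2B ENZR and 0.18 in LNCaP (-0.02 there with equal library sums). ACACA, which makes malonyl-CoA, had 0.10 in C4-2B ENZR and 0.28 in LNCaP (0.14 there after centring). ACSS2, which makes acetyl-CoA from acetate, had 0.25 in C4-2B ENZR, and 0.05 in LNCaP with an interval that spanned 0.

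The desaturases SCD and FADS1 and the elongase ELOVL5 had the highest mean ratios. SCD, which puts the first double bond into saturated acyl chains, was at 691 CPM in shMAOA and 545 CPM in shCon of C4-2B ENZR, and at 601 CPM in shMAOA and 501 CPM in shCon of LNCaP. Its ratios were 0.34 in C4-2B ENZR (interval 0.31 to 0.37) and 0.26 in LNCaP (0.24 to 0.28), higher in each line. The mean was 0.30 ± 0.15 (SE, limma adjusted p = 0.262). After centring the SCD ratios were 0.35 in C4-2B ENZR and 0.13 in LNCaP. FADS1, the delta-5 desaturase of polyunsaturated fatty acids, was at 295 CPM in shMAOA and 238 CPM in shCon of C4-2B ENZR, and at 191 CPM in shMAOA and 155 CPM in shCon of LNCaP. Its ratios of 0.31 in C4-2B ENZR and 0.29 in LNCaP were nearly equal, and the mean of 0.30 ± 0.13 (SE) did not pass (limma adjusted p = 0.162). ELOVL5, an elongase of polyunsaturated chains, was at 158 CPM in shMAOA and 146 CPM in shCon of C4-2B ENZR, and at 967 CPM in shMAOA and 698 CPM in shCon of LNCaP. The gap was wider in LNCaP (ratio 0.47, interval 0.45 to 0.49) than in C4-2B ENZR (0.11, interval 0.04 to 0.17), a difference that was not tested. The mean of 0.29 ± 0.14 (SE) did not pass (limma adjusted p = 0.232). Of these, the printed promoter of SCD held CCAAT and GGGCGG matches and that of FADS1 GGGCGG matches alone.

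SREBF1 and FADS2 had counting intervals on opposite sides of 0 in the lines, as did 7.88% of all genes tested. That share covers genes with a mean of at least 1, many with fewer reads and wider intervals than these 2 members. SREBF1, the transcription factor of the arm, was at 297 CPM in shMAOA and 256 CPM in shCon of C4-2B ENZR (ratio 0.21, interval 0.16 to 0.26), and at 492 CPM in shMAOA and 533 CPM in shCon of LNCaP (-0.12, interval -0.14 to -0.09). FADS2, the delta-6 desaturase next to FADS1 on chromosome 11, was at 927 CPM in shMAOA and 794 CPM in shCon of C4-2B ENZR (0.22, interval 0.20 to 0.25), and at 846 CPM in shMAOA and 868 CPM in shCon of LNCaP (-0.04, interval -0.06 to -0.02). Both were thus higher with the MAOA hairpin in C4-2B ENZR and lower in LNCaP, and no replicate allows a test of that difference. Exons of SREBF1 overlap RAI1 on the other strand over 6.92% of their length. Those of FADS2 and FADS1, also on opposite strands, overlap each other over 4.44% of the length of FADS2 and 4.79% of that of FADS1.

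ELOVL6 and ME1 had low mean ratios with SREBF1. ELOVL6, which lengthens palmitate to stearate, was at 55.5 CPM in shMAOA and 52.5 CPM in shCon of C4-2B ENZR (0.08, interval -0.03 to 0.19), and at 11.2 CPM in shMAOA and 13.8 CPM in shCon of LNCaP (-0.28, interval -0.46 to -0.14). ME1, the malic enzyme that yields NADPH, was at 54.2 CPM in shMAOA and 57.5 CPM in shCon of C4-2B ENZR (-0.08, interval -0.19 to 0.03), and at 71.2 CPM in shMAOA and 64.3 CPM in shCon of LNCaP (0.14, or -0.05 with equal library sums). Neither passed over both lines (limma adjusted p = 0.767 for ELOVL6 and 0.932 for ME1). ACSL1, which activates long-chain fatty acids with CoA, had ratios of 0.25 in C4-2B ENZR and 0.18 in LNCaP (-0.02 with equal library sums).

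**Figure D4:**
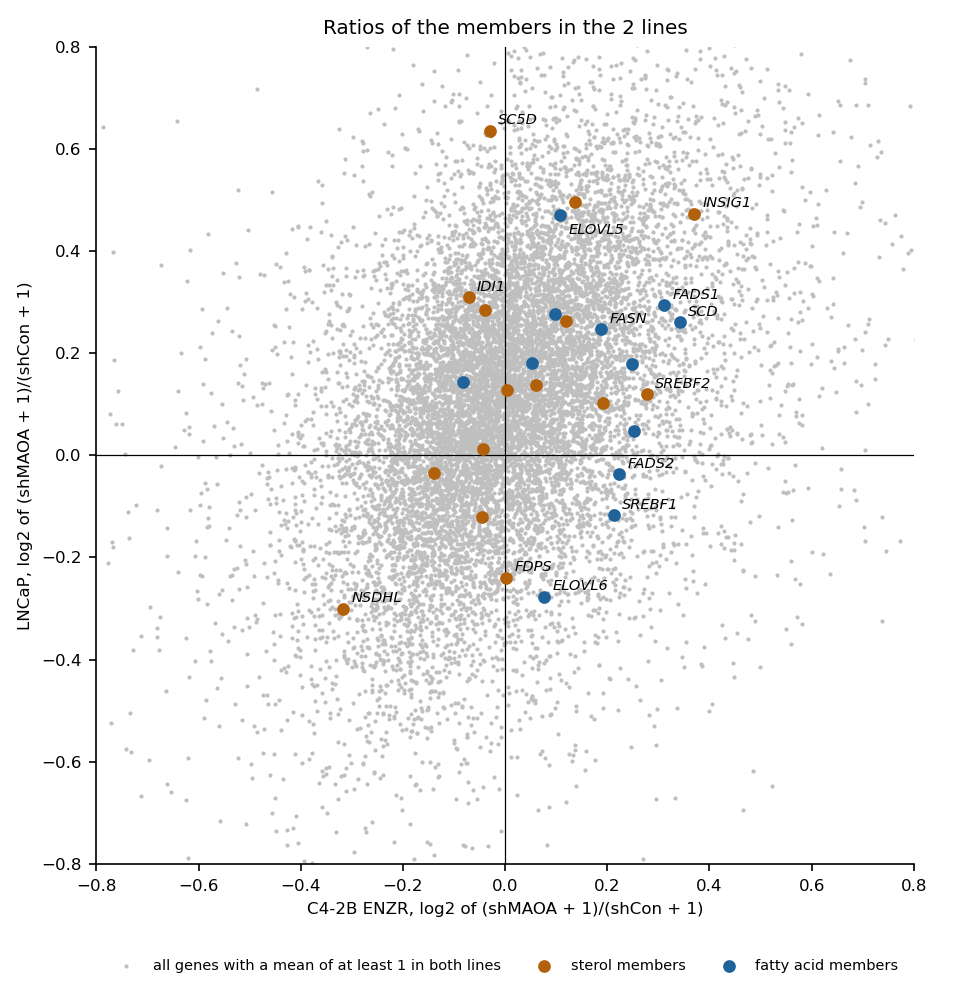
Log2 ratio of shMAOA over shCon in C4-2B ENZR (horizontal axis) and in LNCaP (vertical axis) for the 27 members measured in both lines, sterol members in orange and fatty acid members in blue, over all genes with a mean of at least 1 in both lines in grey (296 genes lie outside the drawn range of 0.8). INSIG1 is at the upper right, NSDHL at the lower left, and SREBF1 and FADS2 lie right of 0 and below 0.

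Taking the lines together, 15 of 27 members had positive ratios in both, 3 had negative ratios in both, all of them sterol members, and 9 had opposite signs. Among all measured genes, 6963 of 13810 had a positive ratio in C4-2B ENZR and 9183 of 13787 in LNCaP. Signs over both lines together were not counted for all genes, so the split is not read as particular to the members. Counting intervals lay above 0 in both lines for 11 members, 7 of the fatty acid arm and 4 of the sterol arm, and below 0 in both for NSDHL. Of all genes averaging at least 10 CPM in both lines, 21.2% lay above 0 in both and 11.7% below 0 in both. Between the lines, Pearson's r was 0.326 and Spearman's rho 0.241 across the 27 members, against 0.401 for r and 0.417 for rho across all 13114 genes. These are descriptions across genes, which are not independent replicates, and genes of a line share its libraries and scaling.

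Among 19 other genes of fatty acid and lipid synthesis and NADPH supply, MID1IP1, FADS3 and ACSL4 rose and none fell. Of all genes tested, 4.19% rose and 1.49% fell. edgeR with recomputed TMM and DESeq2 called none of the 19, and DESeq2 gave ACSL4 no adjusted p. ACSL4, which activates arachidonate-type chains, was at 3.33 CPM in shMAOA and 1.90 CPM in shCon of C4-2B ENZR and at 6.86 CPM in shMAOA and 3.56 CPM in shCon of LNCaP (0.68 ± 0.17, SE; limma adjusted p = 0.00547), higher in 2 of 2 lines. FADS3, a relative of FADS1 and FADS2, was at 28.5 CPM in shMAOA and 20.7 CPM in shCon of C4-2B ENZR and at 36.2 CPM in shMAOA and 26.1 CPM in shCon of LNCaP (0.45 ± 0.14, SE; limma adjusted p = 0.0267), higher in 2 of 2 lines. MID1IP1, an activator of acetyl-CoA carboxylase, was at 249.9 CPM in shMAOA and 219 CPM in shCon of C4-2B ENZR and at 267 CPM in shMAOA and 175 CPM in shCon of LNCaP (0.40 ± 0.13, SE; limma adjusted p = 0.0494), higher in 2 of 2 lines. Over the alternatives that keep the pairing and the filter, adjusted p ranged from 0.00412 to 0.0737 for ACSL4, from 0.0208 to 0.230 for FADS3 and from 0.0200 to 0.165 for MID1IP1. PCYT2, of phosphatidylethanolamine synthesis, had the lowest mean ratio, -0.14. PGD, which supplies NADPH, had ratios of -0.04 in C4-2B ENZR and 0.12 in LNCaP, against 0.13 for all LNCaP genes averaging at least 10 CPM.

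Limma called no gene of sterol efflux or of fatty acid oxidation. Of 8 genes of the LXR and sterol efflux list, 5 could be tested and none passed (none at an unadjusted p under 0.05 either), and CETP, which moves lipid between lipoproteins, was at 0 in all libraries. ABCG1, a sterol exporter, had the highest mean ratio, 0.28 (limma adjusted p = 0.262), at 16.4 CPM in shMAOA and 17.6 CPM in shCon of C4-2B ENZR and 34.2 CPM in shMAOA and 21.4 CPM in shCon of LNCaP, and MYLIP, a ubiquitin ligase under LXR control, the lowest, -0.12. Of 10 genes of fatty acid oxidation none passed in limma, edgeR with recomputed TMM or DESeq2. At an unadjusted p under 0.05, 2 of the 10 were higher and 1 lower, where 1810 of all 13114 genes were higher and 705 lower. PPARA, the nuclear receptor that drives oxidation, had the highest mean ratio, 0.38 ± 0.13 (SE; limma adjusted p = 0.0594), and CPT2, a mitochondrial acyl transferase, the lowest, -0.30 ± 0.13 (SE; limma adjusted p = 0.154). CPT2 would be called after centring or with equal library sums (range of adjusted p 0.0283 to 0.280 over the alternatives that keep the pairing and the filter).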

How the data were processed

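Total RNA of 4 libraries, 1 per group, was sequenced as single reads of 50 nt, per the labels' protocols. Per the submitters' processing notes, Bowtie2 2.1.0, RSEM 1.2.15, edgeR and hg19 were used; the sources used here do not state the annotation, strand setting or filters. The authors deposited a table of TMM-scaled CPM for each line. The deposited C4-2B ENZR values were used as CPM, and the deposited LNCaP values as a signal on that scale, because the shMAOA column sums to 1064500. All values (100%) were whole multiples of 1 read within 0.01 read, so read counts were recovered; 3 reads, the limit for a count of 0, equal 0.122 CPM in shMAOA and 0.121 CPM in shCon of C4-2B ENZR, and 0.0614 in shMAOA and 0.0529 in shCon of LNCaP. Intervals and limits cover counting error only.

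Ratios used a pseudocount of 1, which understates changes of low genes, and a mean of at least 1. Genes were tested with limma 3.58.1 (R 4.3.3, trended prior) on the 2 within-line ratios, with Benjamini-Hochberg adjustment. The step was tested on simulated data that gave both lines the same change, so changes that differ between lines were not covered. edgeR 4.0.16 and DESeq2 1.42.0 on recovered counts, with line as the block, were alternatives; DESeq2 gave no adjusted p for 7 genes of the lists. With line as the block, libraries are paired because they come from the same line; the labels give no replicate numbers. On the recovered counts edgeR with the deposited scaling called 584 genes up and 205 down, against 550 and 196 in limma.

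Members, 5 pathway lists (56 genes, including 2 matched by synonym) and marker lists were chosen with earlier results of these data known. Values in every library were given for members past the test, the 3 highest and 3 lowest mean ratios of each arm, and members past 1.5-fold. They were also given for members with opposite intervals and for SREBF1, SREBF2, INSIG1, FASN and SCD. From other lists they were given for genes past the test, while some extremes were given by mean ratio alone. INSIG2, SCAP, LBR, ACAT2 and PGD, and sterol and fatty acid members beyond this rule, were named after their values were seen. Rows with symbols turned into dates (28 symbols) were not used by name. Some other list genes are not reported here.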

Additional observations from a re-analysis of the deposited data

Results flagged for a closer look

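SREBF1 and FADS2 had ratios of opposite sign in the lines, with counting intervals on either side of 0. For SREBF1 the log2 ratio of shMAOA over shCon in C4-2B ENZR minus that in LNCaP was 0.33, and for FADS2 it was 0.26. The differences were not tested, since each group has 1 library. Signs stayed opposite after centring on the median ratio of each line, at 0.22 in C4-2B ENZR and -0.25 in LNCaP for SREBF1 and at 0.23 in C4-2B ENZR and -0.17 in LNCaP for FADS2. Of all genes tested, those with a mean of at least 1 in both lines, 7.88% had intervals on opposite sides of 0. No group has enough libraries for a check of single outlying samples.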

How the results depend on the processing

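In C4-2B ENZR the sterol median of 0.00270 was -0.0174 with equal library sums and -0.0135 with no filter, and the fatty acid median stayed between 0.180 and 0.207. There 2 of 27 members were at least 25% higher, against 7.78% of all genes. In LNCaP the sterol median of 0.13 became -0.00212 after centring, -0.0660 with equal library sums and 0.0157 with recomputed TMM, and the fatty acid median of 0.18 became 0.0453, -0.0209 and 0.0617 under these settings in turn. The 2 LNCaP members 1.5-fold higher became 0 with a pseudocount of 5, centring, equal sums, recomputed TMM or a 2-fold limit, and 5 of 28 members were at least 25% higher, against 21.3% of all genes. LNCaP ratios that turned negative were HMGCS1 (-0.00698), LSS (-0.0316) and SREBF2 (-0.0143) after centring; HMGCS1 (-0.0701), LSS (-0.10), DHCR7 (-0.0619), SREBF2 (-0.0806), ACLY (-0.0205), ME1 (-0.0544) and ACSL1 (-0.0213) with equal sums; and LSS (-0.0138) with recomputed TMM. These settings shift all LNCaP ratios alike. Over both lines the sterol median of 0.12 was 0.00270 without LNCaP. The 1 member that rose, INSIG1, was lost (0 members, 0 sterol members) with DESeq2, edgeR with recomputed TMM, no filter or an untrended prior, and NSDHL was called as fallen (1 member, 1 sterol member) with equal sums; beyond the scaling the cause was not tested.

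Without the replicate block (line left out of edgeR) 0 members rose, no gene was called, and MAOA was at -1.19 (adjusted p = 1.00); MAOA was at -1.19 in DESeq2 (adjusted p = 0.315) and at -1.12 with no filter (adjusted p = 0.695). Over all genes limma called 550 up and 196 down, against 570 and 536 after centring, 340 and 632 with equal sums, 175 and 128 in edgeR with recomputed TMM, 131 and 90 in DESeq2, 326 and 130 with an untrended prior and 0 with no filter. No library could be left out within a group, which holds 1, and no member had a near-identical copy in the tables to sum with.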
